A study of Mus musculus with 10 samples.

Results

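The genes described here encode the classical axon guidance cues and their receptors: ephrins and Eph receptors, semaphorins with plexins and neuropilins, Slits with Robo receptors, and netrins. They were chosen by symbol, as all genes beginning with Epha, Ephb, Efna, Efnb, Sema, Plxn, Slit, Robo, Ntn or Nrp followed by a number or by a letter and a number. Slitrk genes were left out. Of 19938 genes measured on the arrays, 64 met the rule: 5 ephrin-A genes, 3 ephrin-B genes, 9 EphA and 4 EphB receptors, 7 class 3 and 13 other semaphorins, 2 neuropilins, 9 plexins, 3 Slits, 4 Robo receptors and 5 netrins. These counts cover the genes with a probe set of their own. Ntng2, whose probe set carries 2 symbols, was not analysed here. Nor was the EphB receptor gene Ephb2, which the platform annotation used here paired with no probe set. The families may hold further genes not used here.

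Guidance cues are secreted or membrane-bound proteins that attract or repel growing axons and migrating cells. Ephrin-A ligands are held in the membrane by a lipid anchor and mainly bind EphA receptor tyrosine kinases, whereas ephrin-B ligands cross the membrane and mainly bind EphB receptors, and the ligand-bearing cell can signal too. Class 3 semaphorins are secreted and act mostly through a neuropilin with a plexin, while most membrane-bound semaphorins bind plexins directly. Slits are large secreted repellents for Robo receptors, and netrins such as Ntn1 act through Dcc and Unc5 receptors. In the embryonic neural tube these families also mark positional domains and set borders between cell groups.

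RNA from 5 kinds of mouse culture was compared, with 2 biological replicates and 1 Affymetrix array each. mESC were cells of the R1 embryonic stem line, from strain 129/Sv, kept with 1000 U/ml Lif and 15% serum on a layer of mitomycin-inactivated fibroblasts. p-NSC_L were primitive neural stem cell spheres made from mESC in serum-free N2 medium with 1000 U/ml Lif, and p-NSC_LF were such cells replated with 1000 U/ml Lif, 10 ng/ml FGF and 2 µg/ml heparin. d-NSC were definitive neural stem cells, passaged from primitive ones into N2 and B27 medium with 20 ng/ml EGF, 20 ng/ml FGF and 2 µg/ml heparin, without Lif. CNS-NSC were wild-type neural stem cells from the frontal lobes of ICR embryos at E11.5, in N2 medium with the same EGF, FGF and heparin; B27 is not named for them. The first 4 groups therefore come from a single cell line, and d-NSC and CNS-NSC differ in strain, source and medium, which cannot be told apart.

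Values are log2 intensities. A difference is the first group's mean minus the second's, ± its standard error from limma with n = 2 arrays per group. A gene is said to have risen or fallen where limma's p, adjusted by Benjamini-Hochberg over all 19938 genes, was below 0.05. Replicates correlated across genes at 0.9955 in mESC, 0.9887 in p-NSC_L, 0.9962 in p-NSC_LF, 0.9972 in d-NSC and 0.9885 in CNS-NSC. Among the guidance genes the widest replicate gap was 1.77, for Sema3c in CNS-NSC. A probe set's brightness depends on its own probes, so levels of different genes are not compared. Differences that start from a mean under 6.75, the lower quartile of all gene values, are of uncertain size; 11 of the 64 genes lay there in mESC, 8 in p-NSC_L, 10 in p-NSC_LF, 1 in d-NSC and 2 in CNS-NSC.

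Markers were read to check the labelled cell types. The mean of 14 neural stem and progenitor markers was 8.54 to 8.62 in mESC, 8.67 to 8.75 in the primitive spheres, 10.69 to 10.72 in d-NSC and 11.10 to 11.28 in CNS-NSC. The mean of 10 pluripotency markers was 11.44 to 11.56 in mESC, 11.67 to 11.78 in the primitive spheres, 9.11 to 9.18 in d-NSC and 7.17 to 7.20 in CNS-NSC. On the means of these lists the spheres labelled primitive neural stem cells lay close to mESC. From mESC to p-NSC_L, 3 of the 14 neural markers rose, Slc1a3 by 0.90, Fabp7 by 0.74 and Vim by 0.52, and 1 fell, Pax6, a neural progenitor factor, which read 6.87 in p-NSC_L against 8.27 in mESC. All 10 pluripotency markers, Pou5f1 among them, were at least 2-fold lower in d-NSC than in mESC, where 19.9% of all genes were called lower. Against CNS-NSC, 8 of the 10 were higher in d-NSC, as were 17.6% of all genes, and none was lower by limma. Pou5f1, a core pluripotency factor, still averaged 11.05 in d-NSC against 6.94 in CNS-NSC.

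The guidance genes spanned a wide range between the cultures. The range of the 5 group means had a median of 1.59 among the 64 genes and 0.59 among all genes, and it reached at least 1 in 64.1% of the guidance genes against 28.4% of all genes. It reached at least 2 in 24 of them (37.5%, against 9.01% of all genes). Of all 19938 genes, 4011 lay below the lower quartile in every group, against 1 of the 64. The shares over all genes, here and below, therefore include many dim genes. The smallest range was 0.12, for Sema3g, and the largest 5.67, for Sema6d. As many as 29 of the 64 genes (45.3%) were highest in d-NSC, where 22.1% of all genes were. A further 16 (25%, against 28.6% of all genes) were highest in CNS-NSC, 11 (17.2%, against 16.5%) in p-NSC_LF, 5 (7.81%, against 17.1%) in mESC and 3 (4.69%, against 15.7%) in p-NSC_L. The lowest mean lay in mESC for 26 genes (40.6%, against 23.9% of all genes).

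**Figure D1:**
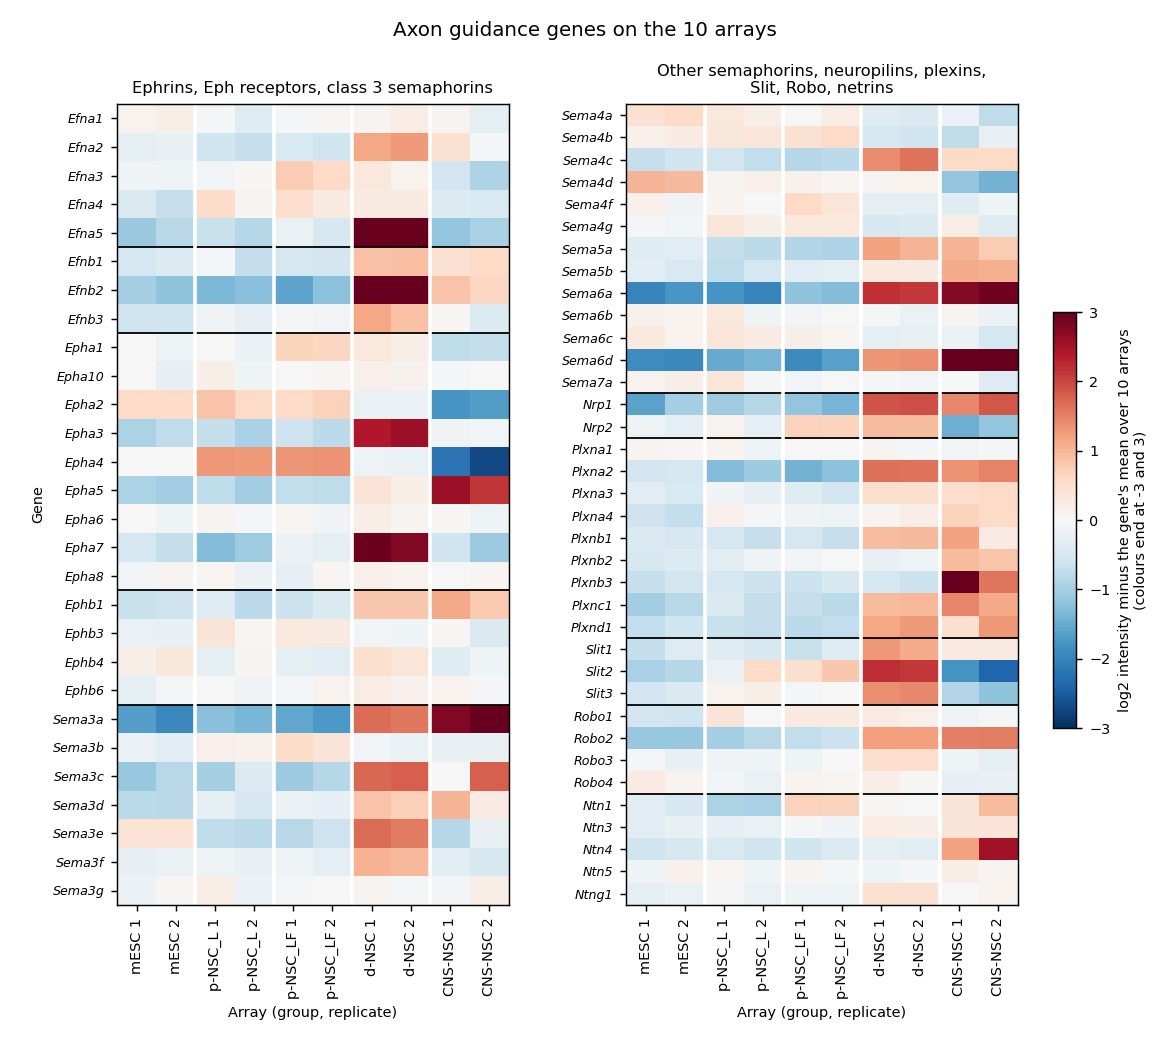
Log2 intensity of the 64 guidance genes (rows, grouped by subfamily) on the 10 arrays (columns), as the deviation from each gene's mean over the 10 arrays, with colours ending at -3 and 3. Dark red blocks for Efna5, Efnb2, Epha3 and Epha7 stand only in the d-NSC columns, while Sema3a, Sema6a, Sema6d and Robo2 are red in both d-NSC and CNS-NSC.

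The primitive stages held fewer changes, spread over the subfamilies. From mESC to p-NSC_L, 8 of the 64 genes rose and 5 fell, or 20.3%, against 13.4% of all genes (6.56% higher and 6.79% lower). Of these, 2 rises and 1 fall were at least 2-fold, as were 2.2% of all genes. From p-NSC_L to p-NSC_LF, 6 rose (9.38%, against 1.78% of all genes, 1.1% higher and 0.677% lower) and no fall passed limma's test. At an unadjusted p under 0.05, 11 were higher and 2 lower, where 1531 and 1189 of all 19938 genes were. Of the rises 1, that of Ntn1, was at least 2-fold, as were 0.502% of all genes. Without moderation of the variances none of the 6 rises passed, 1 passed without either p-NSC_LF replicate, 2 without either d-NSC replicate and 3 without either mESC replicate. The first step also depended on single arrays: leaving out either mESC replicate gave 7 calls in place of 13. Calls over all genes also became fewer in each of these settings, 89 in place of 355 at the second step without moderation. Markers of other cells moved at the first step as well. From mESC to p-NSC_L, 6 of 14 neuronal markers fell, 4 of them at least 2-fold, and 1 rose. Of 11 fibroblast and mesenchymal markers 3 rose and 1 fell, and of 8 primitive endoderm markers 4 rose and 1 fell. No endothelial marker passed limma's test, and 1 of 8 was higher at an unadjusted p under 0.05, where 2594 of all 19938 genes were. Of 8 neural crest markers 2 rose and no fall passed, though 1 was lower at an unadjusted p under 0.05. The part of such cells in the first-step changes was not tested.

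The step from p-NSC_LF to d-NSC changed 44 of the 64 genes, or 68.8%, against 38.6% of all genes. In it 33 guidance genes rose and 11 fell, whereas 19.3% of all genes rose and 19.3% fell. Of the rises 27 were at least 2-fold, and of the falls 2, where 12.2% of all genes changed as much. The median difference was 0.44 for the guidance genes and -0.01 for all genes, and the median absolute difference was 0.78 against 0.26. Against mESC, which shares the d-NSC arrays with that comparison, d-NSC were higher in 38 genes and lower in 5 (67.2%, against 40.5% of all genes, 20.7% higher and 19.9% lower); 28 rises and no fall were at least 2-fold, as were 12.3% of all genes. Against CNS-NSC, d-NSC were higher in 23 genes and lower in 10 (51.6%, against 34% of all genes, 17.6% higher and 16.5% lower). In that comparison 14 rises and 6 falls were at least 2-fold, as were 10.4% of all genes, and the median difference was 0.22. Counts for subfamilies and marker lists in these comparisons, given below, are to be read beside these shares of all genes. In these bulk cultures, fewer cells of a type and less RNA per cell cannot be told apart.

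**Figure D2:**
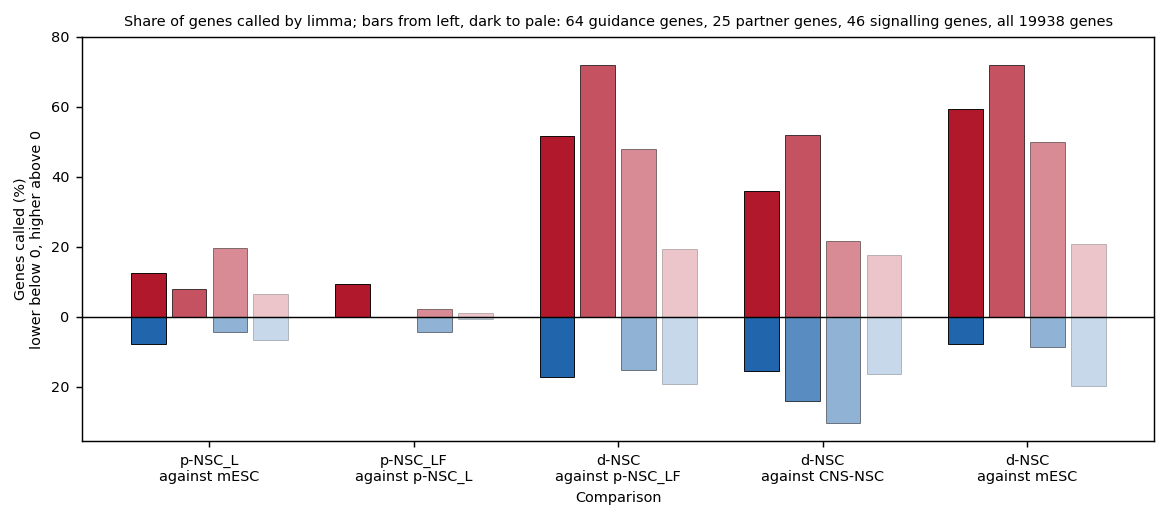
Share of genes called by limma (y axis, percent; higher above 0, lower below) in the 5 comparisons, for the 64 guidance genes, 25 partner genes, 46 signalling genes and all 19938 genes, from left to right and dark to pale. The guidance bars are tallest where d-NSC is set against p-NSC_LF and mESC, with 33 and 38 of 64 genes higher.

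Markers of other cells moved at the step to d-NSC, in both directions. From p-NSC_LF to d-NSC, 12 of 14 neuronal markers rose and 2 fell, with list means of 7.79 and 7.81 on the p-NSC_LF arrays and 9.26 and 9.22 on those of d-NSC; Dcx, a protein of young neurons, averaged 9.15 in d-NSC against 5.79, whereas Stmn2 and Mapt fell, with differences of -1.13 and -0.62. Of 11 fibroblast and mesenchymal markers 8 rose and 1 fell, Thy1, with a difference of -0.68 (list mean 7.65 in p-NSC_LF and 8.44 to 8.52 in d-NSC, with Lum below the lower quartile in every group). Of 8 endothelial markers 5 rose and 2 fell, Pecam1 with a difference of -2.64 and Tek with -1.30, and the list mean was 7.74 in p-NSC_LF and 8.40 to 8.44 in d-NSC. Of 8 primitive endoderm markers 5 rose and none fell by limma, though 1 was lower at an unadjusted p under 0.05, with a list mean of 7.94 to 7.95 in p-NSC_LF and 8.92 to 8.94 in d-NSC. Of 8 neural crest markers 4 rose and 3 fell, all at least 2-fold. CNS-NSC stood apart for oligodendrocyte-lineage markers, at 10.14 to 10.90 against 7.77 to 7.87 in d-NSC, with Olig2 at 12.63 and 8.30. Of these 8 markers 5 were lower in d-NSC than in CNS-NSC and 3 were not called. Other lists were mostly higher in d-NSC than in CNS-NSC. These were all 8 endothelial markers, 7 of 8 for primitive endoderm, 8 of 10 for pluripotency and 8 of 11 for fibroblasts and mesenchyme. Of the last list 1 was lower, and of the others none by limma. Neuronal markers were split, with 7 of 14 higher and 4 lower, and of 8 neural crest markers 5 were higher and 1 lower. Several guidance genes are also made by these cell types, and the part of such cells in the results below was not tested.

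Among the ligands of Eph receptors, 1 ephrin-A and 1 ephrin-B gene were far higher in d-NSC than in the other cultures. Efnb2, a transmembrane ephrin that marks arterial endothelium and neural progenitors, read 7.69 and 7.48 in mESC, 7.34 and 7.45 in p-NSC_L, 7.11 and 7.47 in p-NSC_LF, 11.78 and 11.77 in d-NSC and 9.55 and 9.32 in CNS-NSC. The d-NSC arrays were the highest, those of CNS-NSC intermediate, and the other 6 arrays lay together at the bottom. Efnb2 was 22.4-fold higher in d-NSC than in p-NSC_LF, by 4.48 ± 0.14 (adjusted p = 2.5e-08), and 5.07-fold higher than in CNS-NSC, by 2.34 ± 0.14 (adjusted p = 8.2e-07). The endothelial marker Emcn read 9.21 and 9.23 in d-NSC, 5.77 and 5.88 in p-NSC_LF and 6.83 and 7.25 in CNS-NSC. Pecam1, of the same list, went the other way from p-NSC_LF to d-NSC, from 10.59 and 10.68 to 7.97 and 8.02, and read 7.08 and 6.82 in CNS-NSC. In the list of 8 endothelial markers, 5 rose and 2 fell from p-NSC_LF to d-NSC, and all 8 were higher in d-NSC than in CNS-NSC. The part of endothelial cells in the Efnb2 values was not tested. Efna5, a lipid-anchored ephrin known for setting topographic maps, read 6.79 and 7.06 in mESC, 7.24 and 7.05 in p-NSC_L, 7.71 and 7.41 in p-NSC_LF, 10.98 and 11.11 in d-NSC and 6.73 and 6.94 in CNS-NSC. Only the d-NSC arrays were high, and CNS-NSC lay close to mESC, at the bottom. The difference of Efna5 from p-NSC_LF was 3.48 ± 0.15 (adjusted p = 1e-07), or 11.2-fold, and that from CNS-NSC was 4.21 ± 0.15 (adjusted p = 2.6e-08), or 18.5-fold.

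The sequences just upstream of these 2 genes are shown because they are the ephrins that varied most and both were highest in d-NSC. Each is the 250 bases before the gene's start from RefSeq on build GRCm38.p6, on the gene's own strand, which is the minus strand for both. Efna5 corresponds to chr17:62881318-62881567 and Efnb2 to chr8:8661243-8661492. Capitals mark matches on either strand. The first motif searched was the GC box, spelled GGGCGG. The second was the CCAAT box. The third was the TATA box, written here as TATAAA. The last was the E-box CAGCTG, to which proneural factors bind.
Efna5: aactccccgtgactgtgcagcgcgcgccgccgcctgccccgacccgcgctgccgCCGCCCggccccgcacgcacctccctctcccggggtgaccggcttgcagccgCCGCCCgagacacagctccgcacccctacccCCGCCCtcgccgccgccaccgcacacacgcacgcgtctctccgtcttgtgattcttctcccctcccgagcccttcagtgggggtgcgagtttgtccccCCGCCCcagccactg
Efnb2: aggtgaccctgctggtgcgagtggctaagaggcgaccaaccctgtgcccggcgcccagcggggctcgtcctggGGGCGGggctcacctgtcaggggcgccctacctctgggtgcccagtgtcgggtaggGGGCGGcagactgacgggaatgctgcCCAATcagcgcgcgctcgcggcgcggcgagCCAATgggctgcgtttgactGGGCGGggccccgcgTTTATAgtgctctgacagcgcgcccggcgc
The Efna5 window holds 4 GC boxes, 32 CpG dinucleotides and 74.8% G and C. The Efnb2 window holds 3 GC boxes, 2 CCAAT boxes, 1 TATA box, 27 CpG dinucleotides and 72.0% G and C. RefSeq gave 72 such windows for 56 of the 64 guidance genes, with a median G and C content of 64% and 15 CpG. The medians were 52.4% and 6 CpG over all 32851 windows of RefSeq. Those belong to 27025 genes and so include genes not measured on the arrays. A GC box was found in 72.2% of the guidance windows and 32.7% of all, CCAAT in 26.4% and 33.8%, the TATA box in 2.78% and 12.4%, and the E-box in 16.7% and 13%. For 29 of the 33 guidance genes that rose from p-NSC_LF to d-NSC there were 34 windows. Among these the shares were 70.6% for the GC box, 20.6% for CCAAT, 5.88% for the TATA box and 2.94% for the E-box. These matches describe letters and do not mark bound sites.

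The other ephrins differed less. Efnb1 and Efnb3 rose from p-NSC_LF to d-NSC by 1.42 ± 0.18 (adjusted p = 0.00011) and 1.08 ± 0.16 (adjusted p = 0.00033), so that all 3 ephrin-B genes rose. Efnb3 was also higher in d-NSC than in CNS-NSC, by 1.20, whereas the Efnb1 difference of 0.36 did not pass (adjusted p = 0.16). Of the 5 ephrin-A genes, Efna2 rose with Efna5, by 1.74 ± 0.15 (adjusted p = 9.9e-06), and reached 10.72 and 10.85 in d-NSC. Efna3 followed another course. It read 9.48 and 9.45 in mESC, 9.51 and 9.61 in p-NSC_L, 10.34 and 10.19 in p-NSC_LF, 9.90 and 9.69 in d-NSC and 9.02 and 8.67 in CNS-NSC. Its rise from p-NSC_L to p-NSC_LF was 0.70 ± 0.14 (adjusted p = 0.032), a call lost in 10 of 20 other settings. The p-NSC_LF arrays were the highest, and the change to d-NSC of -0.47 ± 0.14 (adjusted p = 0.019) was lost without d-NSC replicate 2 and without p-NSC_LF replicate 1.

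Efna4 had risen earlier, at the first step from mESC. It read 9.26 and 8.99 in mESC, 10.25 and 9.78 in p-NSC_L, 10.19 and 9.97 in p-NSC_LF, 9.96 and 9.96 in d-NSC and 9.29 and 9.24 in CNS-NSC, and its rise from mESC to p-NSC_L was 0.89 ± 0.16 (adjusted p = 0.0056), with adjusted p = 0.058 without mESC replicate 2. The arrays of both ends, mESC and CNS-NSC, lay below all others. Efna1 was not called in any comparison, with a range of group means of 0.37. Against CNS-NSC, d-NSC were higher in 4 of 5 ephrin-A genes (Efna2, Efna3, Efna4 and Efna5) and in 2 of 3 ephrin-B genes, and no ephrin was lower by limma, also at an unadjusted p under 0.05.

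EphA receptors moved in opposite directions at the step to d-NSC: 3 of 9 rose and 3 fell. Epha3, a receptor that binds ephrin-A5 with high affinity, read 5.96 and 6.15 in mESC, 6.20 and 5.93 in p-NSC_L, 6.28 and 6.12 in p-NSC_LF, 9.32 and 9.47 in d-NSC and 6.81 and 6.83 in CNS-NSC. The d-NSC arrays stood alone, above CNS-NSC, and the other 6 arrays lay below the lower quartile. The difference of Epha3 from p-NSC_LF was 3.20 ± 0.13 (adjusted p = 6.3e-08) and from CNS-NSC 2.58 ± 0.13 (adjusted p = 1.9e-07). Epha7, another EphA receptor of the embryonic brain, read 7.95 and 7.73 in mESC, 7.16 and 7.39 in p-NSC_L, 8.28 and 8.16 in p-NSC_LF, 11.39 and 11.24 in d-NSC and 7.86 and 7.37 in CNS-NSC. It was the guidance gene called in all 5 comparisons and was 13-fold higher in d-NSC than in CNS-NSC, by 3.70 ± 0.16 (adjusted p = 1.1e-07). Its change from mESC to p-NSC_L was -0.56 ± 0.16 (adjusted p = 0.0499), after which it rose to p-NSC_LF by 0.95 ± 0.16 (adjusted p = 0.021) and to d-NSC by 3.09 ± 0.16 (adjusted p = 3.7e-07). The first of these differences was not called in 11 of 20 other settings, quantile normalization among them (adjusted p = 0.0521). The second was not called in 6 of 20, the unmoderated test among them, and the third was called in all.

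Epha4, a receptor that binds ephrins of both classes, took a different course. Its values were 10.17 and 10.19 in mESC, 11.45 to 11.53 on the 4 primitive sphere arrays, 10.02 and 9.97 in d-NSC and 7.97 and 7.48 in CNS-NSC. It rose in the primitive spheres, with all 4 of their arrays above all others, and was lowest in CNS-NSC. The rise from mESC to p-NSC_L was 1.29 ± 0.14 (adjusted p = 0.00043) and the change from p-NSC_LF to d-NSC was -1.52 ± 0.14 (adjusted p = 1.7e-05), the largest fall among the 64 genes at that step. d-NSC remained 4.82-fold above CNS-NSC, by 2.27 ± 0.14 (adjusted p = 1.1e-06). Epha2, an EphA receptor long known from embryonic stem cells and epithelia, read 10.33 and 10.33 in mESC, 10.61 and 10.33 in p-NSC_L, 10.32 and 10.44 in p-NSC_LF, 9.56 and 9.59 in d-NSC and 7.98 and 8.07 in CNS-NSC. It fell from p-NSC_LF to d-NSC, with a difference of -0.80 ± 0.12 (adjusted p = 0.00032), and d-NSC was still above CNS-NSC by 1.55 ± 0.12 (adjusted p = 3.8e-06).

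Epha5, an EphA receptor of forebrain neurons and their precursors, was the only EphA gene lower in d-NSC than in CNS-NSC. It read 6.15 and 6.06 in mESC, 6.34 and 6.05 in p-NSC_L, 6.35 and 6.33 in p-NSC_LF, 7.49 and 7.27 in d-NSC and 9.69 and 9.24 in CNS-NSC. The CNS-NSC arrays were highest and d-NSC intermediate, with differences for d-NSC of 1.04 ± 0.16 (adjusted p = 0.00052) from p-NSC_LF and -2.08 ± 0.16 (adjusted p = 4.9e-06) from CNS-NSC. Epha1 read 7.95 and 7.78 in mESC, 7.96 and 7.77 in p-NSC_L, 8.61 and 8.59 in p-NSC_LF, 8.25 and 8.12 in d-NSC and 7.18 and 7.22 in CNS-NSC, which put p-NSC_LF on top and CNS-NSC at the bottom. Its rise to p-NSC_LF was 0.73 ± 0.11 (adjusted p = 0.012) and was lost without either p-NSC_LF replicate, as was its change to d-NSC of -0.41 ± 0.11 (adjusted p = 0.014). Epha6, Epha8 and Epha10 were not called in any comparison, and Epha6 lay below the lower quartile in every group.

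Of the 4 EphB receptors analysed here, 2 rose at the step to d-NSC and none fell by limma, though 1 (Ephb3) was lower at an unadjusted p under 0.05. Ephb1 read 6.38 and 6.43 in mESC, 6.67 and 6.26 in p-NSC_L, 6.42 and 6.61 in p-NSC_LF, 7.87 and 7.86 in d-NSC and 8.20 and 7.83 in CNS-NSC and rose to d-NSC by 1.35 ± 0.16 (adjusted p = 8.7e-05). d-NSC and CNS-NSC overlapped for Ephb1, and its second probe set, with a mean of 6.48 in p-NSC_LF and 6.97 in d-NSC, showed a smaller gap. Ephb4, the receptor paired with ephrin-B2 in blood vessels, rose by 0.73 ± 0.14 (adjusted p = 0.002) and was also higher than in CNS-NSC by 0.66. Ephb6, a receptor without kinase activity, differed only between d-NSC and mESC, by 0.34 ± 0.12 (adjusted p = 0.0481), a call lost in 10 other settings. Ephb3 was not called in any comparison.

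**Figure D3:**
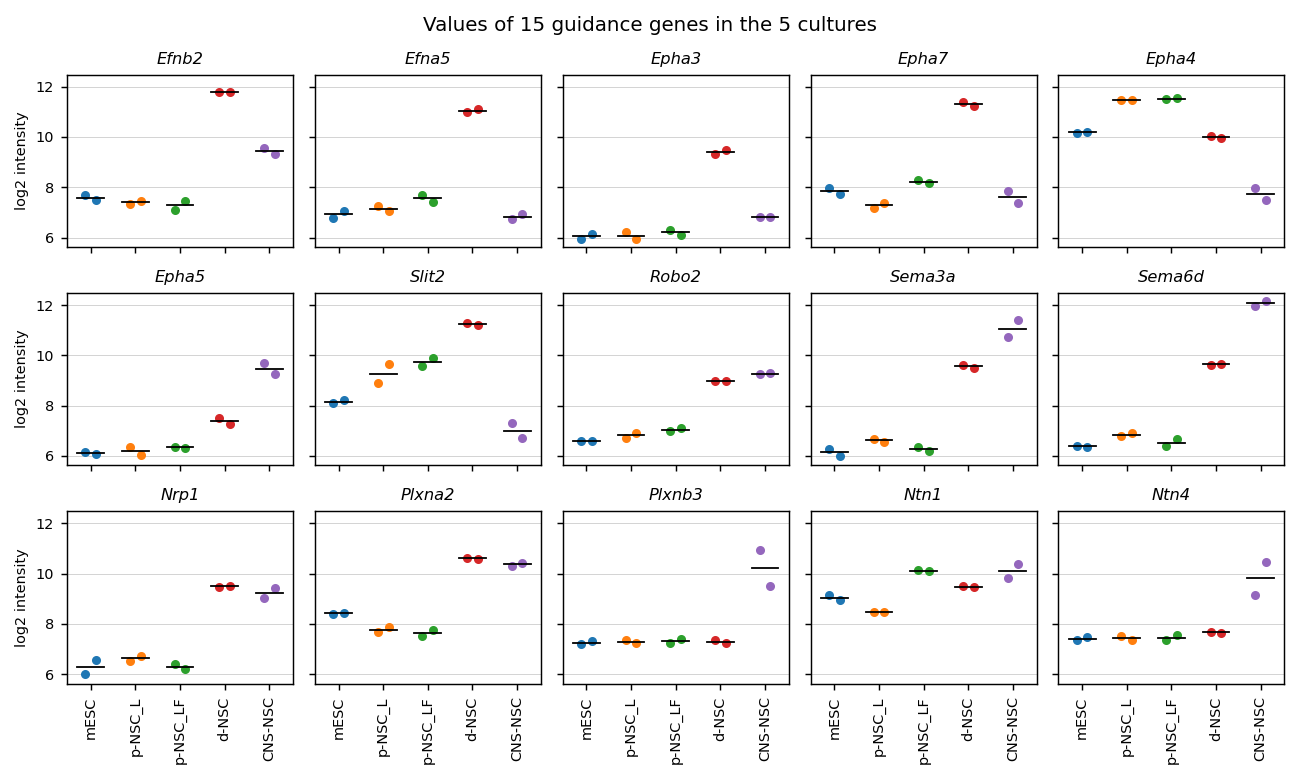
Log2 intensity (y axis) of 15 guidance genes in the 5 cultures (x axis); points are single arrays and bars the mean of 2 arrays. The d-NSC points of Efnb2, Efna5, Epha3, Epha7 and Slit2 lie above every other culture, whereas Sema6d, Sema3a, Epha5, Plxnb3 and Ntn4 are highest in CNS-NSC.

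All 3 Slit ligands rose to d-NSC, and all 3 were higher there than in CNS-NSC. Slit2, a repellent of commissural and forebrain axons, read 8.10 and 8.22 in mESC, 8.88 and 9.65 in p-NSC_L, 9.57 and 9.88 in p-NSC_LF, 11.30 and 11.20 in d-NSC and 7.29 and 6.70 in CNS-NSC. The d-NSC arrays were highest and those of CNS-NSC lowest, below mESC. The difference of Slit2 from p-NSC_LF was 1.52 ± 0.25 (adjusted p = 0.00072) and that from CNS-NSC was 4.25 ± 0.25 (adjusted p = 6.9e-07), or 19.1-fold, the largest rise over CNS-NSC among the 64 genes. Slit2 was already higher in p-NSC_L than in mESC, by 1.10 ± 0.25 (adjusted p = 0.017), but with p-NSC_L replicates at 8.88 and 9.65; without the second of them the difference was 0.72 (adjusted p = 0.066), and it also missed the threshold without either mESC replicate. The fibroblast marker Dcn read 6.06 and 6.48 in mESC and 8.79 and 10.41 in p-NSC_L, so the second p-NSC_L replicate was the higher for both genes. In its list of 11 markers 3 rose and 1 fell at this step, with a median difference of 0.27. From p-NSC_L to p-NSC_LF 0 of them rose and 1 fell by limma, and the Slit2 difference was 0.46 (adjusted p = 0.48). The part of fibroblasts in the Slit2 values was not tested.

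Slit3 was likewise highest in d-NSC and lowest in CNS-NSC. It read 8.15 and 8.28 in mESC, 8.83 and 8.90 in p-NSC_L, 8.66 and 8.70 in p-NSC_LF, 10.12 and 10.17 in d-NSC and 7.85 and 7.52 in CNS-NSC, with differences for d-NSC of 1.46 ± 0.12 (adjusted p = 7.3e-06) from p-NSC_LF and 2.46 ± 0.12 (adjusted p = 2.2e-07) from CNS-NSC. Its rise at the first step was 0.65 ± 0.12 (adjusted p = 0.007), with adjusted p = 0.07 without mESC replicate 1. Slit1, a Slit largely of the nervous system, rose at the last step, by 1.73 ± 0.14 (adjusted p = 7.3e-06), and d-NSC exceeded CNS-NSC by 0.93 ± 0.14 (adjusted p = 0.0006).

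Of 4 Robo receptors, 2 rose to d-NSC. Robo2, a main Slit receptor of neurons, read 6.61 and 6.59 in mESC, 6.72 and 6.91 in p-NSC_L, 7.00 and 7.09 in p-NSC_LF, 8.97 and 8.97 in d-NSC and 9.24 and 9.28 in CNS-NSC. Both d-NSC and CNS-NSC arrays lay above the other 6, and d-NSC differed from p-NSC_LF by 1.93 ± 0.10 (adjusted p = 3.6e-07). The d-NSC and CNS-NSC arrays did not overlap, but their difference of -0.29 ± 0.10 (adjusted p = 0.0502) missed the threshold; it passed in 7 other settings (adjusted p from 0.023 to 0.0493). Robo1, the other main receptor, rose at the first step, by 0.79 ± 0.13 (adjusted p = 0.003). It read 10.36 and 10.33 in mESC, 11.33 and 10.95 in p-NSC_L, 11.22 and 11.23 in p-NSC_LF, 11.18 and 11.09 in d-NSC and 10.81 and 10.89 in CNS-NSC, with mESC lowest and CNS-NSC below the 6 arrays of the other groups. Robo3, a Robo that works in commissural axons, rose to d-NSC by 0.58 ± 0.11 (adjusted p = 0.002) from a level below the lower quartile. Robo4, the endothelial member, differed only between d-NSC and CNS-NSC, by 0.35 ± 0.11 (adjusted p = 0.029), a call lost in 8 other settings.

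Among the secreted class 3 semaphorins, 5 of 7 rose from p-NSC_LF to d-NSC and 1 fell. Sema3a, the founding collapse factor for growth cones, read 6.28 and 6.0 in mESC, 6.68 and 6.56 in p-NSC_L, 6.37 and 6.20 in p-NSC_LF, 9.62 and 9.51 in d-NSC and 10.72 and 11.40 in CNS-NSC. The CNS-NSC arrays were highest, d-NSC next, and the other 6 lay below the lower quartile. The difference of Sema3a for d-NSC was 3.28 ± 0.20 (adjusted p = 7.9e-07) from p-NSC_LF and -1.50 ± 0.20 (adjusted p = 0.0002) from CNS-NSC. Sema3e, which can signal through Plxnd1 without a neuropilin, read 8.11 and 8.14 in mESC, 6.95 and 6.91 in p-NSC_L, 6.88 and 7.09 in p-NSC_LF, 9.39 and 9.27 in d-NSC and 6.84 and 7.49 in CNS-NSC. It fell from mESC to p-NSC_L, with a difference of -1.20 ± 0.18 (adjusted p = 0.0021), and then rose to d-NSC, the highest group, by 2.34 ± 0.18 (adjusted p = 4.1e-06). d-NSC exceeded CNS-NSC for Sema3e by 2.17 ± 0.18 (adjusted p = 8.2e-06).

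Sema3f, which acts mainly through neuropilin 2, rose by 1.22 ± 0.11 (adjusted p = 9.5e-06) and was higher than in CNS-NSC by 1.40 ± 0.11 (adjusted p = 3.8e-06). Sema3c and Sema3d also rose, by 2.73 ± 0.44 (adjusted p = 0.00063) and 1.00 ± 0.20 (adjusted p = 0.0028), from levels below or near the lower quartile. For Sema3c the CNS-NSC replicates read 7.68 and 9.45, the second equal to the d-NSC level, and its difference from CNS-NSC of 0.86 did not pass (adjusted p = 0.17). Sema3b ran the other way. Its p-NSC_LF arrays, at 8.30 and 8.15, were the highest, and its change to d-NSC was -0.61 ± 0.10 (adjusted p = 0.00093). Its rise from mESC to p-NSC_L was 0.39, a call lost in 10 of 19 other settings, and Sema3g was not called in any comparison.

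Membrane-bound semaphorins of class 4 mostly went down at the same step: 4 of 6 fell and 1 rose. Sema4b, a transmembrane semaphorin, read 10.08 and 10.16 in mESC, 10.25 and 10.27 in p-NSC_L, 10.38 and 10.50 in p-NSC_LF, 9.38 and 9.31 in d-NSC and 9.15 and 9.69 in CNS-NSC, with d-NSC and CNS-NSC both below the first 3 groups. Its change from p-NSC_LF to d-NSC was -1.09 ± 0.16 (adjusted p = 0.0003). Sema4f and Sema4g changed by -0.78 ± 0.13 (adjusted p = 0.00077) and -0.78 ± 0.16 (adjusted p = 0.0034). They read 7.29 and 7.04 in mESC, 7.21 and 7.15 in p-NSC_L, 7.72 and 7.50 in p-NSC_LF, 6.83 and 6.83 in d-NSC and 6.77 and 7.00 in CNS-NSC for Sema4f, and 8.24 and 8.21 in mESC, 8.66 and 8.46 in p-NSC_L, 8.61 and 8.62 in p-NSC_LF, 7.81 and 7.87 in d-NSC and 8.51 and 7.94 in CNS-NSC for Sema4g. In both, d-NSC lay below all arrays of the first 3 groups, and for Sema4f it overlapped with CNS-NSC. Sema4a, known from immune and retinal cells, read 7.94 and 8.05 in mESC, 7.81 and 7.65 in p-NSC_L, 7.50 and 7.71 in p-NSC_LF, 7.09 and 7.05 in d-NSC and 7.31 and 6.71 in CNS-NSC. Its difference between d-NSC and mESC was -0.93 ± 0.18 (adjusted p = 0.0017), and the step from p-NSC_LF alone was -0.53 ± 0.18 (adjusted p = 0.034), a call lost when any p-NSC_LF or d-NSC replicate was left out.

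Sema4c was the exception in its class. This ligand of plexin B2 stood at 10.02 and 10.25 in d-NSC, 9.22 and 9.18 in CNS-NSC and between 7.75 and 8.07 in the first 3 groups. It rose to d-NSC by 2.34 ± 0.12 (adjusted p = 2.5e-07) and exceeded CNS-NSC by 0.94 ± 0.12 (adjusted p = 0.00014). Sema4d, the ligand of plexin B1, read 9.72 and 9.69 in mESC, 8.78 and 8.86 in p-NSC_L, 8.83 and 8.76 in p-NSC_LF, 8.79 and 8.82 in d-NSC and 7.52 and 7.29 in CNS-NSC. It fell at the first step, with a difference of -0.89 ± 0.11 (adjusted p = 0.00068), and the d-NSC arrays lay among those of the primitive spheres, 1.40 ± 0.11 (adjusted p = 4.2e-06) above CNS-NSC. Against mESC the d-NSC difference of Sema4d was -0.91 ± 0.11 (adjusted p = 7.7e-05). The other Sema4d probe set was flat, between 7.78 and 7.89 in the 5 group means, and with the mean of both probe sets these differences were -0.44, 0.75 and -0.41.

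In classes 5 to 7, the transmembrane Sema6a and Sema6d showed some of the largest contrasts. Sema6d, a ligand of plexin A1, read 6.41 and 6.36 in mESC, 6.79 and 6.89 in p-NSC_L, 6.38 and 6.67 in p-NSC_LF, 9.62 and 9.66 in d-NSC and 11.96 and 12.17 in CNS-NSC. CNS-NSC was highest and d-NSC lay midway, well above the 6 remaining arrays. Its difference for d-NSC was 3.12 ± 0.12 (adjusted p = 6.6e-08) from p-NSC_LF and -2.42 ± 0.12 (adjusted p = 2.6e-07) from CNS-NSC. Sema6a, a ligand of plexins A2 and A4, read 7.29 and 7.56 in mESC, 7.54 and 7.30 in p-NSC_L, 8.10 and 7.99 in p-NSC_LF, 11.49 and 11.43 in d-NSC and 12.06 and 12.22 in CNS-NSC. The order of the groups was similar, but d-NSC came closer to CNS-NSC, with a difference of -0.68 ± 0.13 (adjusted p = 0.0023). From p-NSC_LF to d-NSC Sema6a rose by 3.41 ± 0.13 (adjusted p = 5.7e-08), or 10.6-fold. An earlier rise to p-NSC_LF, 0.62 ± 0.13 (adjusted p = 0.045), was lost in 12 other settings.

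Sema5a and Sema5b, transmembrane proteins with thrombospondin repeats, rose to d-NSC by 2.01 ± 0.12 (adjusted p = 6.5e-07) and 0.59 ± 0.11 (adjusted p = 0.0015). Sema5b was lower in d-NSC than in CNS-NSC, with a difference of -0.81 ± 0.11 (adjusted p = 0.00024), as were Sema6a and Sema6d, so that 3 of these 7 genes were lower and none higher by limma, also at an unadjusted p under 0.05. Sema6c read 8.50 and 8.31 in mESC, 8.56 and 8.46 in p-NSC_L, 8.39 and 8.26 in p-NSC_LF, 7.92 and 7.99 in d-NSC and 8.0 and 7.68 in CNS-NSC, with d-NSC below the first 3 groups and overlapping with CNS-NSC; its difference from mESC was -0.45 ± 0.13 (adjusted p = 0.018), a call lost without either d-NSC replicate. Sema6b and the lipid-anchored Sema7a were not called in any comparison. The rise of Sema6d from mESC to p-NSC_L, 0.45, was called in the full fit but not in 10 of 20 other settings.

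Of the 2 neuropilins, Nrp1 rose from p-NSC_LF to d-NSC and Nrp2 from p-NSC_L to p-NSC_LF. Nrp1, the neuropilin that binds Sema3a and also a co-receptor of VEGF in endothelium, read 5.99 and 6.56 in mESC, 6.52 and 6.74 in p-NSC_L, 6.39 and 6.20 in p-NSC_LF, 9.47 and 9.51 in d-NSC and 9.02 and 9.44 in CNS-NSC. The d-NSC and CNS-NSC arrays formed 1 high group, d-NSC differing from p-NSC_LF by 3.19 ± 0.19 (adjusted p = 8.9e-07) and from CNS-NSC by 0.26 ± 0.19 (adjusted p = 0.36). Nrp2, its paralogue for Sema3f, read 9.45 and 9.34 in mESC, 9.72 and 9.34 in p-NSC_L, 10.30 and 10.27 in p-NSC_LF, 10.55 and 10.56 in d-NSC and 8.15 and 8.43 in CNS-NSC. It was already high in p-NSC_LF, after a rise of 0.76 ± 0.14 (adjusted p = 0.028) that was lost in 9 other settings, without p-NSC_L replicate 2 among them. The later step added 0.27, which did not pass, and Nrp2 was 4.81-fold higher in d-NSC than in CNS-NSC, by 2.27 ± 0.14 (adjusted p = 1e-06).

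Of 9 plexins, 5 rose to d-NSC and none fell by limma, also at an unadjusted p under 0.05. Plxna2, a plexin for Sema6a and for class 3 semaphorins, read 8.40 and 8.44 in mESC, 7.66 and 7.87 in p-NSC_L, 7.54 and 7.74 in p-NSC_LF, 10.62 and 10.60 in d-NSC and 10.32 and 10.44 in CNS-NSC. It fell from mESC to p-NSC_L, with a difference of -0.65 ± 0.11 (adjusted p = 0.0051), and rose to d-NSC by 2.97 ± 0.11 (adjusted p = 5.8e-08), where its difference from CNS-NSC was 0.23 ± 0.11 (adjusted p = 0.15). Plxna3, Plxnb1, Plxnc1 and Plxnd1 rose by 0.95, 1.54, 1.73 and 1.97. Their differences from CNS-NSC did not pass and ran from -0.33 for Plxnc1 to 0.33 for Plxnd1, but the CNS-NSC replicates lay 0.95 apart for Plxnb1 and 0.82 for Plxnd1.

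Other plexins set d-NSC below CNS-NSC. Plxnb3, a plexin of the oligodendrocyte lineage, read 7.19 and 7.33 in mESC, 7.35 and 7.25 in p-NSC_L, 7.25 and 7.41 in p-NSC_LF, 7.35 and 7.25 in d-NSC and 10.96 and 9.50 in CNS-NSC. Only CNS-NSC was high, with 1.46 between its replicates, and d-NSC lay among the mESC and primitive sphere arrays, -2.93 ± 0.35 (adjusted p = 9.7e-05) from CNS-NSC. The oligodendrocyte-lineage markers given above were high on the same arrays, and their part in the Plxnb3 difference was not tested. Plxnb2, a plexin of dividing neural progenitors, differed between d-NSC and CNS-NSC by -1.08 ± 0.11 (adjusted p = 3.7e-05), with d-NSC at 10.63 and 10.71 and CNS-NSC at 11.81 and 11.68. Plxna4, a partner of Nrp1, read 7.21 and 7.11 in mESC, 7.98 and 7.76 in p-NSC_L, 7.72 and 7.67 in p-NSC_LF, 7.90 and 8.02 in d-NSC and 8.49 and 8.39 in CNS-NSC. It rose at the first step, by 0.71 ± 0.11 (adjusted p = 0.0029), and its difference between d-NSC and CNS-NSC was -0.48 ± 0.11 (adjusted p = 0.0074), with adjusted p = 0.071 without d-NSC replicate 1. Plxna1 was flat, with a range of group means of 0.14.

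**Figure D4:**
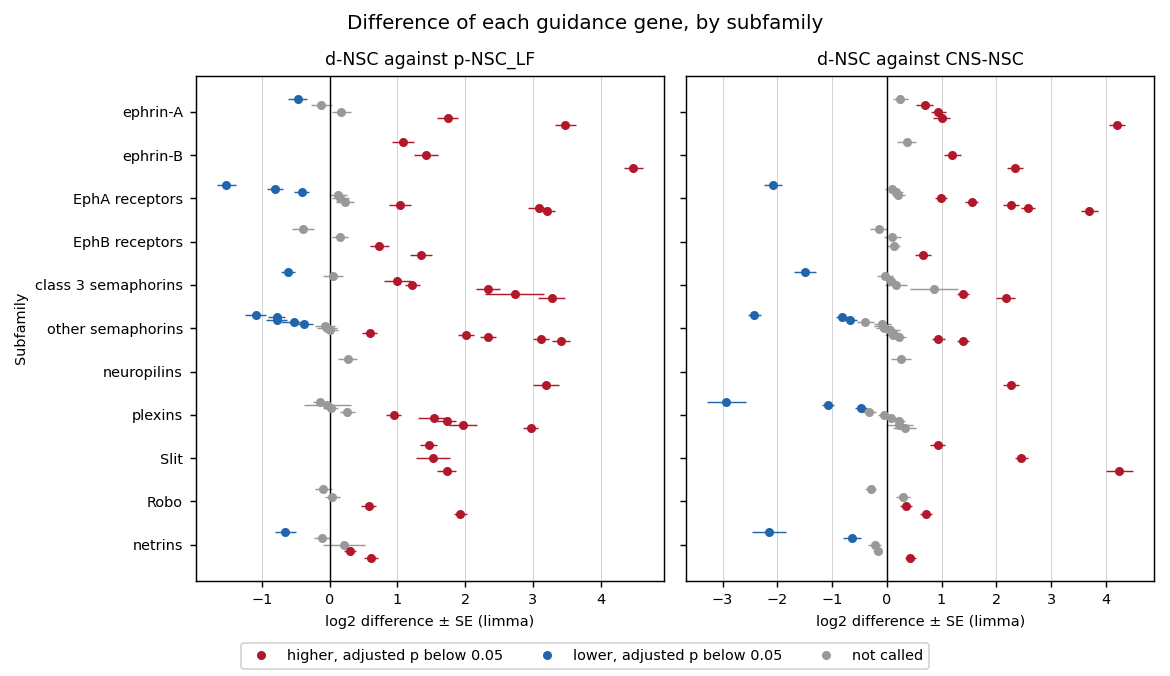
Log2 difference ± SE from limma (x axis) of each guidance gene by subfamily (y axis), for d-NSC against p-NSC_LF on the left and d-NSC against CNS-NSC on the right; red is higher and blue lower at adjusted p below 0.05, grey not called. All 3 Slits and all 3 ephrin-B genes are red on the left, and the plexins, 5 red on the left, have none red on the right.

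Of the 5 netrins analysed here, 2 rose and 1 fell at the step to d-NSC, each by less than 2-fold on the probe sets used. Ntn1, the secreted attractant of commissural axons, read 9.14 and 8.96 in mESC, 8.49 and 8.48 in p-NSC_L, 10.13 and 10.12 in p-NSC_LF, 9.49 and 9.45 in d-NSC and 9.84 and 10.40 in CNS-NSC. It moved at each step, lowest in p-NSC_L and highest in p-NSC_LF and CNS-NSC. Its rise from p-NSC_L to p-NSC_LF was 1.64 ± 0.16 (adjusted p = 0.0015), 3.11-fold and the largest at that step, and it missed the threshold only without variance moderation (adjusted p = 0.061). The earlier change from mESC was -0.56 ± 0.16 (adjusted p = 0.0474) and the later one to d-NSC -0.65 ± 0.16 (adjusted p = 0.0088); the first was lost in 11 other settings and the second without d-NSC replicate 2. Against CNS-NSC the difference of Ntn1 was -0.64 ± 0.16 (adjusted p = 0.011), and it lay between -0.93 and -0.36 over the alternatives, with the smaller size without CNS-NSC replicate 2; the call was lost in 4 settings, without either d-NSC replicate among them.

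Ntn4, a netrin that also binds laminin, read 7.35 and 7.48 in mESC, 7.51 and 7.37 in p-NSC_L, 7.35 and 7.56 in p-NSC_LF, 7.68 and 7.65 in d-NSC and 9.17 and 10.47 in CNS-NSC. Only CNS-NSC was high, with replicates 1.30 apart, and d-NSC differed from it by -2.16 ± 0.31 (adjusted p = 0.0004). Ntng1, the membrane-anchored netrin-G1, rose to d-NSC by 0.61 ± 0.10 (adjusted p = 0.00091); its other probe set, at 6.19 in p-NSC_LF and 8.09 in d-NSC, gave a wider gap. Ntn3 rose by 0.30, a call lost when any p-NSC_LF or d-NSC replicate was left out, and Ntn5 was not called in any comparison.

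Genes that work with these families were counted from 2 lists. Of 25 partner receptors and ligands, 18 (72%, against 19.3% of all genes) rose from p-NSC_LF to d-NSC, and none fell by limma, also at an unadjusted p under 0.05. Flrt2, an adhesion protein that binds Unc5 receptors, was 16-fold higher, at 11.05 against 7.05, by 4.0 ± 0.12 (adjusted p = 2.5e-08). Dcc, the attractive netrin receptor, read 6.54 and 6.49 in mESC, 6.60 and 6.49 in p-NSC_L, 6.66 and 6.49 in p-NSC_LF, 10.49 and 10.36 in d-NSC and 10.27 and 8.82 in CNS-NSC. It rose to d-NSC by 3.85 ± 0.34 (adjusted p = 1.2e-05), and its difference from CNS-NSC was 0.88 ± 0.34 (adjusted p = 0.076), which missed the threshold. It passed in 3 other settings, with array weights (adjusted p = 0.031) and without CNS-NSC replicate 1, where the difference was 1.61, among them. Unc5c, a repulsive netrin receptor, rose by 2.82 ± 0.13 (adjusted p = 1.3e-07) and exceeded CNS-NSC by 1.88 ± 0.13 (adjusted p = 1.7e-06).

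Against CNS-NSC, 13 of the 25 partner genes were higher in d-NSC and 6 lower, where 17.6% of all genes were higher and 16.5% lower. Boc, a commissural axon receptor of hedgehog, was higher by 1.70 ± 0.12 (adjusted p = 2e-06), as were Flrt2 (2.26) and Unc5c. The largest falls below CNS-NSC were those of neural adhesion molecules, with differences of -3.54 ± 0.23 (adjusted p = 1.2e-06) for Dscam, -3.41 ± 0.13 (adjusted p = 4.2e-08) for Chl1 and -3.19 ± 0.45 (adjusted p = 0.00032) for Cntn1. The CNS-NSC replicates of Cntn1 were 11.53 and 9.67. Dscam and Chl1 were at 7.53 to 7.56 and 7.19 to 7.20 in d-NSC. The oligodendrocyte-lineage markers were again high on the same CNS-NSC arrays, and their part in these differences was not tested.

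Of 46 signalling genes downstream of guidance receptors, 22 rose from p-NSC_LF to d-NSC and 7 fell, beside the 19.3% of all genes in each direction given above. Dpysl5, a collapsin response mediator, rose by 2.62 ± 0.15 (adjusted p = 5.5e-07), the kinase gene Pak3 by 2.59 ± 0.27 (adjusted p = 3.4e-05) and the Src-family kinase gene Fyn by 2.27 ± 0.15 (adjusted p = 1.3e-06). The largest falls were differences of -1.78 ± 0.17 (adjusted p = 1.6e-05) for Ablim1, an actin-binding protein, -1.73 ± 0.11 (adjusted p = 8.9e-07) for Tiam1, a Rac activator, and -1.15 ± 0.11 (adjusted p = 2.4e-05) for Limk2, a cofilin kinase. Against CNS-NSC 10 signalling genes were higher and 14 lower in d-NSC, beside the same 17.6% and 16.5% of all genes. Dpysl5, Srgap1 (which binds Robo receptors) and Tiam1 led the higher ones, at 2.07, 0.89 and 0.80. Vav3, Chn2 and Mical2, the last an actin-oxidising enzyme, led the lower ones, at -3.46, -2.51 and -1.85.

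In all, 10 of the 64 genes were not called in any comparison (Efna1, Epha6, Epha8, Epha10, Ephb3, Ntn5, Plxna1, Sema3g, Sema6b and Sema7a), with ranges of group means from 0.12 to 0.50. The calls differed in how firmly they stood: 38 of 44 from p-NSC_LF to d-NSC, 29 of 33 between d-NSC and CNS-NSC, and 40 of 43 between d-NSC and mESC passed under every alternative that gave a value. At the first step 6 of 13 did, and none of the 6 at the second.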

How the data were processed

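Per the labels' protocols, Trizol RNA was labelled for Affymetrix whole-transcript arrays with Ambion's kit. The authors deposited log2 intensities of 35556 probe sets on 10 arrays; RMA and Partek are named, with no version, in the submitters' processing notes. RMA makes the arrays' distributions alike and compresses differences of dim probe sets. Base 2 was inferred from the range of values (2.07 to 14.74, array medians 7.66 to 7.76). Scan dates were not analysed here.

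Platform annotation gave 21789 probe sets 1 symbol, 1621 several and 12146 none; the first were used, and 21698 of them matched RefSeq by gene number, with 0 symbols changed. For 999 genes with several probe sets the brightest by mean stood for the gene, which left 19938 genes, 5 of them guidance genes with a further probe set. No gene was filtered out.

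In R 4.3.3, limma 3.58.1 fitted group means to the 10 arrays together (median SE of a difference 0.13, residual degrees of freedom 5, prior 4.9), so a wide replicate gap in 1 group widens the error of that gene in every comparison. P-values were adjusted by Benjamini-Hochberg over all genes, with 0.05 as threshold. The number of arrays limits the precision. Tables were made with pandas 2.3.3 under Python 3.11.15, and plots with matplotlib 3.10.9. On data simulated for p-NSC_L against mESC with 19938 genes, limma called 14.9% of genes changed by 0.5, 74.6% by 1 and 100% by 2, and 3.1% of its 130 calls were false. The same comparison of the deposited data gave 2662 calls, so these shares need not hold for it or for the other comparisons.

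Named with all arrays were the 5 largest called rises and falls per comparison with separate replicates, and the widest-ranging gene of each subfamily; partner genes were the 3 largest called rises and falls of each list in the comparisons of d-NSC with p-NSC_LF and CNS-NSC. Other members are named to account for them, and the cell type markers named singly were chosen after their values were seen. The guidance genes and gene lists were chosen with earlier results of these data known. Of 49 signalling genes 46 were measured. Replicate numbers were checked as pairs (correlations of deviations from -0.11 to 0.26). With 2 arrays per group this check cannot settle whether the numbers pair the samples, and the main fit used no pairing. Alternatives were quantile and cyclic loess normalization, leaving out the dimmer 30% or 50% of genes, a trended prior, an unmoderated test, only the 2 groups compared, array weights, a block for replicate number, averaging a gene's probe sets, and leaving out each array.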

Additional observations from a re-analysis of the deposited data

How the results depend on the processing

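Counts of guidance genes called are given by comparison. With an unmoderated test the calls over all genes were also fewer, 1587 in place of 2662 from mESC to p-NSC_L and 89 in place of 355 from p-NSC_L to p-NSC_LF. From mESC to p-NSC_L 13 genes were called, 8 with an unmoderated test, and 7 to 19 when 1 array was left out. From p-NSC_L to p-NSC_LF 6 were called, 0 with an unmoderated test, 2 with only the 2 groups compared, and 1 to 6 when 1 array was left out. Leaving out the dimmer 50% of genes kept 30 of the 64 to test, and the counts were then 23 in place of 44 from p-NSC_LF to d-NSC, 20 in place of 33 between d-NSC and CNS-NSC, and 24 in place of 43 between d-NSC and mESC. Over all genes the calls were then 5855 in place of 7706, 5338 in place of 6783 and 5993 in place of 8083, in the same order. These calls come from the brighter 50% of the 19938 genes, so they are not shares of the full number. With this filter the share called was higher both among the guidance genes and among all genes. The shares of the guidance genes and of all genes then lay closer together than in the full fit. Leaving out 1 array gave 38 to 45, 29 to 36 and 40 to 47 in these comparisons. With the replicate number as a block the counts were 13, 5, 45, 34 and 42, in the order of the comparisons in the report's plot of shares. The labels do not say whether same-numbered samples are paired. No difference of a named gene that passed the test changed sign under any alternative run. Differences near 0.5 may be missed with 2 arrays per group, as most were in the simulation, which held fewer changed genes than limma called here. Differences from groups below the lower quartile have an uncertain size.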
